A study of Macaca mulatta with 20 samples.

Results

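COL18A1, the gene of collagen XVIII, and 8 other genes of the vascular basement membrane (COL15A1, COL4A1, COL4A2, LAMA4, LAMB1, LAMC1, NID1 and HSPG2) were followed through liver biopsies of rhesus monkeys (Macaca mulatta). They are 9 of the 18288 genes in the deposited gene table. COL18A1 was picked for a shift between its transcripts, which was read from these same libraries, so its transcript shares and its comparisons with Control livers at year 2 are given as a description with no test. The other 8 genes were taken for their place in the basement membrane, with earlier results of these data known. The study compared 5 monkeys under caloric restriction (CR, animals 004, 007, 008, 011 and 012) with 5 monkeys on a control diet (Control, animals 001, 005, 006, 009 and 010). Every animal gave 1 biopsy after 2 years on its diet (year 2) and 1 at enrolment (year 0), which makes 4 groups of 5 libraries: CR at year 2, CR at year 0, Control at year 2 and Control at year 0. No strain, age or allele is used here, and the size of the restriction is not given in the sources used here. Within a group, values are listed in the order of the animal numbers given above.

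A basement membrane is a thin sheet of matrix on which epithelial, endothelial and muscle cells rest. It is built from a laminin network and a collagen IV network, tied together by nidogen and by heparan sulfate proteoglycans such as perlecan and collagen XVIII. The sinusoids of a healthy liver lack a continuous basement membrane, whereas portal vessels and bile ducts have one. Collagen XVIII is unusual among these proteins in being made largely by hepatocytes, and its C-terminal end can be cut off as endostatin, a fragment that restrains vessel growth. In human and mouse the gene is read from more than 1 promoter, which gives proteins that differ at the N-terminal end. The deposited tables name the rhesus transcripts by number, without exon structure, so the numbers cannot be matched to those forms here.

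Library totals lay between 15421789 and 31440640 estimated counts. The lowest total was that of Control 009 at year 2, and the next lowest, 20883559, was that of Control 010 at year 2. The libraries of Control animals 009 and 001 at year 2 stood apart from the other 18. They scored 129.65 and 67.4 on a first principal component that held 27.3% of the spread between libraries, and their median correlations with the other libraries were 0.851 and 0.898, against at least 0.954 elsewhere. Albumin RNA took 5.42% and 8.57% of their counts. All 12 hepatocyte markers were detected in every library. The 6 mesothelial markers, of which 2 to 4 were at 0 in every library, summed to 23.9 and 18.7 CPM in Control 009 and 001 at year 2, against 1.55 to 5.99 CPM elsewhere. Most of these sums was MSLN alone, at 22.8 and 17.9 CPM, against 1.11 to 4.44 elsewhere. UPK3B, at 0.156 and 0.814 CPM, lay within the 0.0364 to 0.998 of the other 18 libraries, and CALB2 and KRT5 were at 0 in both. For the members, several results that rest on the libraries of Control 009 and 001 at year 2 are given with and without animals 001 and 009. For genes outside the members, marker genes included, no log2 difference without these animals is given. Biopsies of different animals are biological replicates, and p-values were adjusted over all genes tested.

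COL18A1 has 2 transcripts in the deposited tables. The transcript numbered 01 carried most of the RNA in 19 of the 20 libraries, and the transcript numbered 02 carried most of it in 1. In TPM, which scales reads by transcript length, transcript 02 stood at 1.43, 0.160, 1.68, 0.90 and 0.690 in CR livers at year 2. At year 0 the same CR animals had 2.14, 0.930, 1.14, 3.56 and 1.13 TPM. All 10 CR libraries were thus at a few TPM or less. Control livers had 83.7, 2.15, 3.29, 546 and 12.0 TPM of transcript 02 at year 2. The same Control animals had 0.280, 0, 0, 3.97 and 3.43 TPM at year 0, where 2 libraries are listed at 0. Animal 009 was far above every other library, and animals 001 and then 010 came next, while animals 005 and 006 lay within the range of the CR libraries at year 0.

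As a share of COL18A1 TPM, transcript 02 took 74.1% in Control 009 at year 2, 23.5% in Control 001 and 4.86% in Control 010. In the 18 libraries other than Control 009 and 001 at year 2 the share ran from 0% to 4.86%, with a median of 0.497%. The mean share was 0.403% ± 0.247 in CR at year 2, 0.679% ± 0.318 in CR at year 0, 20.9% ± 31.2 in Control livers of year 2 and 0.661% ± 0.861 in Control at year 0 (SD, n = 5 each). The median of Control at year 2 was 4.86%, and its mean was 2.30% without animals 001 and 009, against 0.530% for the same 3 animals at year 0. Read numbers behind the high shares were large: 26596.82 estimated reads for transcript 02 and 10231.18 for transcript 01 in Control 009 at year 2, and 8177.47 and 29309.53 in Control 001. The transcripts have effective lengths of 5664 and 5151 bases (medians over libraries, worked out from the deposited counts and FPKM), and by counts instead of TPM the mean share of Control at year 2 was 20.1%.

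**Figure D1:**
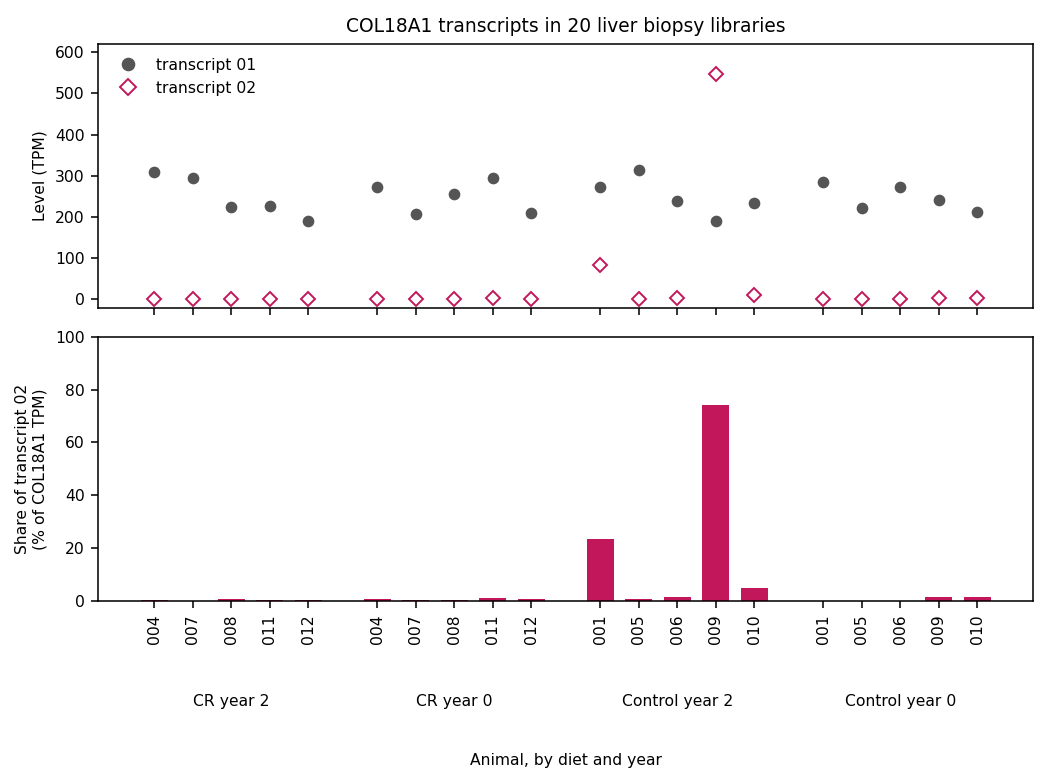
COL18A1 transcripts in each of the 20 libraries, grouped by diet and year and labelled by animal number: levels in TPM (upper panel, circles for transcript 01 and diamonds for transcript 02) and the share of transcript 02 in percent of COL18A1 TPM (lower panel, bars). Transcript 01 stays between 191.22 and 314.88 TPM in every library, while transcript 02 reaches 546.38 TPM in Control 009 and 83.65 TPM in Control 001 at year 2.

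Whether transcript 01 was lower in the library with the high share depended on the scale. In TPM, transcript 01 averaged 249 ± 50.5 in CR at year 2, 249 ± 38.8 in CR at year 0, 250.3 ± 46.3 in Control livers of year 2 and 246 ± 31.4 in Control at year 0 (SD, n = 5 each). Control 009 at year 2, at 191.22 TPM, was the lowest library by a small margin, since the next was at 191.37. In TMM-scaled CPM (counts scaled to a library size corrected for composition), transcript 01 had 399.5 in Control 009 and 1491 in Control 001 at year 2, against 657 to 1129.8 in the other 18 libraries. On that scale transcript 02 had 1039 and 416 CPM in the same pair, against 0 to 36.7 elsewhere. The high share of transcript 02 therefore stood beside a high level of that transcript on both scales, and beside a low level of transcript 01 on the CPM scale in animal 009 only.

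Shifts of transcript shares in these libraries were not limited to COL18A1. Of 1550 genes with more than 1 transcript and at least 50 reads in every library, 636 (41.0%) had a transcript whose share differed by 20 percentage points or more from the median of the other libraries in Control 009 at year 2. The same count was 375 (24.2%) in Control 001 and 248 (16.0%) in Control 010 at year 2. Other libraries with many such genes were Control 005 at year 0 with 236 (15.2%) and CR 012 at year 2 with 199 (12.8%), and the remaining 15 libraries had between 85 and 125 (5.48% to 8.06%). A difference of 70 points or more was found for 132 genes in Control 009 and 28 in Control 001 at year 2, and for 3 to 10 genes in each of the others. COL18A1, at 73.5 points in Control 009 and 22.9 in Control 001, was among the genes off by 70 points or more in Control 009, and among those off by 20 but not 70 in Control 001. The part of library depth, library composition or RNA quality in the COL18A1 shift was not tested.

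**Figure D2:**
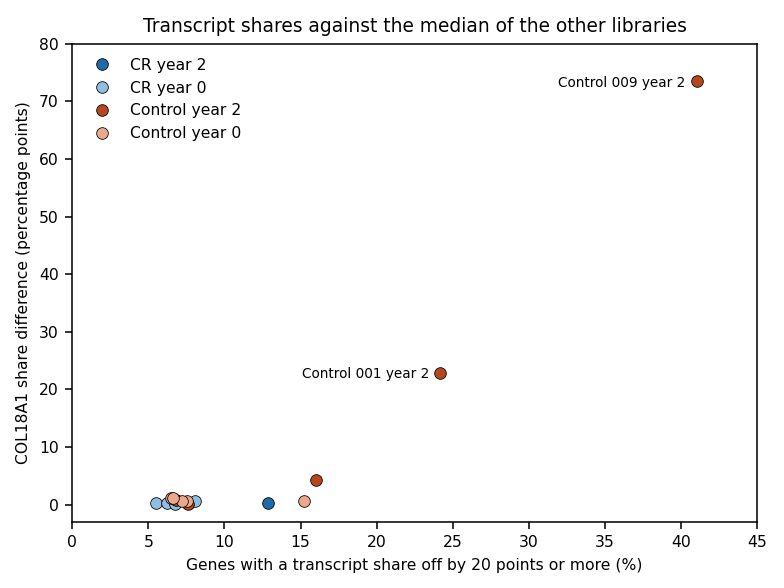
Each point is 1 library: the percentage of 1550 genes whose transcript share was off by 20 points or more (horizontal axis) against the share difference of COL18A1 in percentage points (vertical axis), both measured from the median of the other libraries. Control 009 and Control 001 at year 2 are highest on both axes, at 41.0% with 73.5 points and at 24.2% with 22.9 points.

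At the gene level, COL18A1 was the most abundant of the 9 genes, with a median of 252 TPM over 20 libraries. CR livers had 1135, 1039, 754, 742 and 674 CPM at year 2 and 867, 659, 812, 959 and 703 CPM at year 0. Control livers had 1907, 916, 787, 1438 and 826 CPM at year 2 and 931, 856, 1021, 901 and 739.8 CPM at year 0. Animals 001 and 009 at year 2 were above the 18 others, which lay between 659 and 1135 CPM, and the groups overlapped. Means were 869 ± 204 CPM in CR at year 2, 799.9 ± 121 in CR at year 0, 1175 ± 486 in Control livers of year 2 and 889.8 ± 103 in Control at year 0 (SD, n = 5 each). The log2 difference between year 2 and year 0 was 0.10 ± 0.24 (SE) in CR and 0.32 ± 0.25 in Control. CR minus Control was -0.44 ± 0.31 at year 2 and -0.15 ± 0.13 at year 0. Without animals 001 and 009 the Control difference was -0.02 ± 0.21 and the year 2 difference between diets was 0.04 ± 0.21, so that both changed sign.

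None of the 8 other members passed an adjusted p of 0.05 with edgeR's quasi-likelihood test (Benjamini-Hochberg) in any of 5 comparisons, and few genes did: 0% of 13730 genes in the change of CR over 2 years, 0% in the change of Control, 0% in the diet by year interaction, 0% of 13345 genes between diets at year 2 and 0.242% of 13244 genes at year 0. The interaction is the change in CR minus the change in Control. At an unadjusted p under 0.05 the members numbered 0 of 8 in the change of CR, where 2.89% of all genes passed. They numbered 3 of 8 in the change of Control (COL15A1, COL4A2 and HSPG2), against 14.6% of all genes. In the interaction there were 2 of 8 (COL4A2 and HSPG2), against 6.85%. Between diets there was 1 of 8 at year 2 (COL4A2), against 7.03%, and 5 of 8 at year 0 (LAMC1, HSPG2, LAMA4, COL4A2 and NID1), against 18.3%. The values of CR and Control livers overlapped for all 9 members at both times, while groups with no overlap were found for 0.757% of genes at year 2 and 4.99% at year 0. DESeq2 with the same design called COL15A1 in the change of Control (adjusted p = 0.0214) and LAMC1 at year 0 (adjusted p = 0.0297). It called none of the 8 in the other 3 comparisons. In all, it called 210 of 13463 genes (1.56%) in the change of Control and 780 of 12949 (6.02%) at year 0. Without animals 001 and 009, DESeq2 gave COL15A1 an adjusted p of 0.514 in the change of Control, where it called 83 of 13583 genes (0.611%) and no member.

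The median log2 difference of the 9 members, COL18A1 included, was 0.10 in the change of CR, 0.46 in the change of Control, -0.22 in the interaction, -0.55 between diets at year 2 and -0.13 at year 0. In the change of CR and in the interaction the median is the value of COL18A1 itself, which was picked from these libraries. Without animals 001 and 009 the median between diets at year 2 was -0.27. Over all genes tested the medians were 0.00, 0.00, 0.01, -0.07 and -0.01 in the same comparisons. The change of Control, the interaction and the diet difference at year 2 share the Control libraries of year 2, and the first and second also those of year 0, so they are not separate observations.

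**Figure D3:**
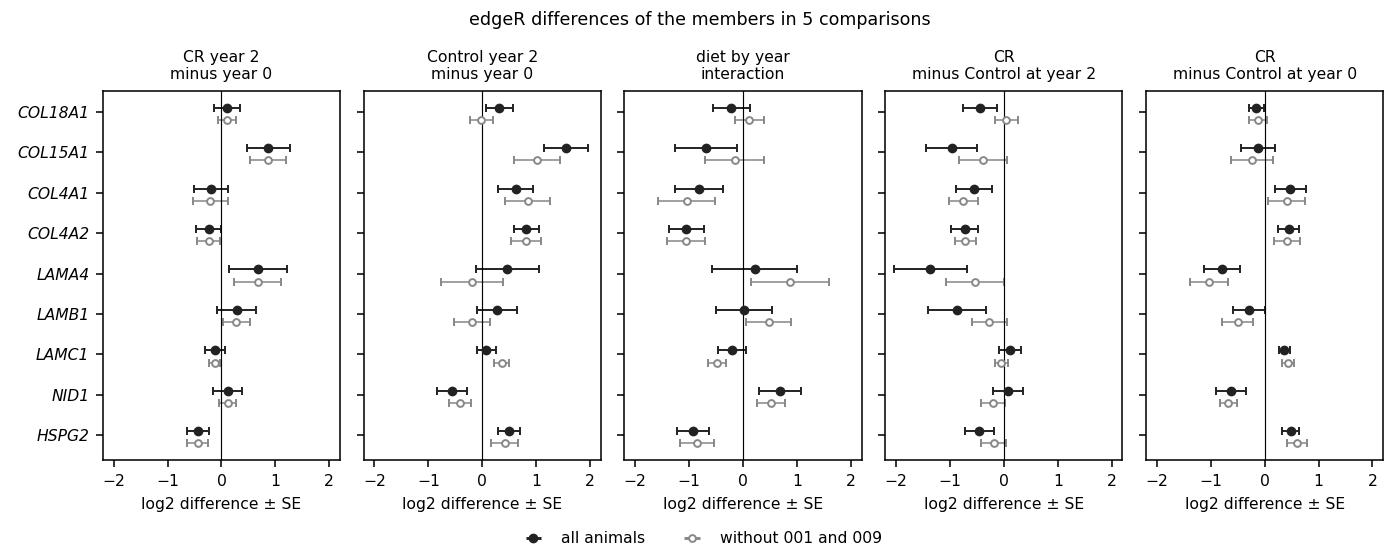
The log2 differences of the 9 genes with their SE in 5 comparisons from edgeR fits of all animals (filled points) and without animals 001 and 009 (open points). COL4A2 and HSPG2 keep negative interactions in both fits, while LAMA4 and LAMB1 in Control change sign without these animals.

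COL15A1 encodes collagen XV, the close relative of collagen XVIII in the multiplexin family and also the source of an endostatin-like fragment. It was the least abundant member per length, with a median of 0.305 TPM and 12 to 130 reads per library. CR livers had 2.21, 0.782, 1.26, 1.27 and 0.833 CPM at year 2 and 0.636, 0.665, 1.09, 0.596 and 0.408 CPM at year 0. Control livers had 2.29, 0.889, 1.51, 5.08 and 2.61 CPM at year 2 and 0.646, 0.824, 0.477, 0.667 and 1.12 CPM at year 0. Every animal of both diets was higher at year 2 than at year 0, by log2 differences of 0.20 to 1.74 in CR and 0.10 to 2.86 in Control. Of all genes tested, 6.55% were higher in 5 of 5 CR animals and 4.61% in 5 of 5 Control animals. The fitted log2 difference over 2 years was 0.87 ± 0.40 in CR (unadjusted p = 0.0503, adjusted p = 0.999 with edgeR) and 1.55 ± 0.41 in Control (unadjusted p = 0.00222, adjusted p = 0.297 with edgeR). The largest value, in Control 009 at year 2, was outside the 0.408 to 2.61 CPM of the 18 other libraries, and without animals 001 and 009 the Control difference was 1.02 ± 0.43 (adjusted p = 0.612, edgeR). Between diets the log2 difference was -0.97 ± 0.47 at year 2 and -0.13 ± 0.31 at year 0, and the groups overlapped at both times. Without animals 001 and 009 the difference at year 2 was -0.39 ± 0.44. In a whole biopsy, fewer cells of a type and less RNA per cell cannot be told apart, here and for the genes that follow.

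COL4A1 and COL4A2 encode the chains of the common collagen IV trimer. The genes lie next to each other in the rhesus reference annotation and are read in opposite directions in mammals. COL4A2 had 36.8, 38.2, 44.4, 40.0 and 46.6 CPM in CR livers at year 2 and 40.5, 74.5, 56.7, 39.8 and 38.9 CPM at year 0. Control livers had 41.4, 51.6, 93.1, 95.8 and 57.5 CPM at year 2 and 32.5, 36.7, 30.7, 37.9 and 46.1 CPM at year 0. All 5 Control animals were higher at year 2, while 2 of 5 CR animals were. Mean levels were 41.2 ± 4.16 CPM in CR at year 2, 50.1 ± 15.5 in CR at year 0, 67.9 ± 24.9 in Control livers of year 2 and 36.8 ± 5.99 in Control at year 0 (SD, n = 5 each). The log2 difference over 2 years was -0.24 ± 0.23 in CR (adjusted p = 0.999) and 0.82 ± 0.23 in Control (unadjusted p = 0.00390, adjusted p = 0.297), with edgeR. The interaction was -1.05 ± 0.33 (unadjusted p = 0.00678, adjusted p = 0.678, edgeR). It was -1.06 ± 0.35 without animals 001 and 009 (adjusted p = 0.422, edgeR). CR minus Control was -0.73 ± 0.25 at year 2 (unadjusted p = 0.0129, adjusted p = 0.659, edgeR), and 0.45 ± 0.19 at year 0 (unadjusted p = 0.0392, adjusted p = 0.247, edgeR). The diets thus stood in opposite order before and after the diets, and their values overlapped at both.

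COL4A1 had 30.9, 38.9, 56.6, 48.3 and 50.5 CPM in CR livers at year 2 and 49.5, 90.7, 65.4, 31.2 and 36.4 CPM at year 0. Control livers had 26.7, 55.4, 114, 74.0 and 58.4 CPM at year 2 and 29.5, 41.8, 29.4, 42.9 and 52.5 CPM at year 0. In CPM the highest libraries were Control 006 at year 2 and CR 007 at year 0, and the same libraries were among the highest 3 for COL4A2. In TPM the highest COL4A1 library was Control 009 at year 2, at 31.5, with 30.9 in Control 006 at year 2. The log2 difference over 2 years was -0.20 ± 0.31 in CR (adjusted p = 0.999) and 0.62 ± 0.32 in Control (adjusted p = 0.368), with an interaction of -0.82 ± 0.45 (adjusted p = 0.750, all edgeR). Both collagen IV genes therefore had point estimates of the same sign in each of the 5 comparisons, with the smaller SE in COL4A2. After removal of group means, their log2 CPM correlated at r = 0.902 over 20 libraries and at 0.932 over the 18 without Control 001 and 009 at year 2. Those points share libraries and depth, and reads where the genes adjoin may not be told apart without strand.

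HSPG2 encodes perlecan, the large heparan sulfate proteoglycan of basement membranes. CR livers had 16.4, 19.5, 26.97, 36.1 and 22.9 CPM at year 2 and 29.9, 42.0, 33.2, 30.3 and 25.8 CPM at year 0. Control livers had 30.5, 28.1, 28.1, 52.8 and 27.04 CPM at year 2 and 24.4, 20.9, 16.9, 27.2 and 26.3 CPM at year 0. All 5 Control animals were higher at year 2 and 4 of 5 CR animals were lower, with CR 011 as the exception. The log2 difference over 2 years was -0.44 ± 0.21 in CR (unadjusted p = 0.0564, adjusted p = 0.999) and 0.50 ± 0.21 in Control (unadjusted p = 0.0327, adjusted p = 0.323), with edgeR. The interaction was -0.93 ± 0.29 (unadjusted p = 0.00749, adjusted p = 0.681, edgeR), and -0.86 ± 0.32 without animals 001 and 009 (adjusted p = 0.429, edgeR). At year 0, before the diets, the difference between CR and Control livers was 0.48 ± 0.16 on the log2 scale (unadjusted p = 0.00996, adjusted p = 0.150, edgeR), and at year 2 the difference was -0.46 ± 0.27 (adjusted p = 0.661, edgeR). It was -0.19 ± 0.23 at year 2 without animals 001 and 009. At year 0 the lowest CR library, 012, lay within the Control range and the other 4 were above it. At year 2 the highest value was that of Control 009, above every other library of the study.

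NID1 encodes nidogen, the linker between laminin and collagen IV. It was second in abundance per length, with a median of 43.2 TPM. CR livers had 114, 162, 144, 152 and 123 CPM at year 2 and 127, 167, 139, 111 and 101 CPM at year 0. Control livers had 99.4, 172, 201, 79.4 and 104 CPM at year 2 and 79.6, 190.4, 216, 299 and 214 CPM at year 0. In CPM, Control 009 had the highest level of all libraries at year 0 and, by a small margin, the lowest at year 2. In TPM, Control 009 at year 2 had 37.7 and was not the lowest, which was Control 001 at year 2 with 18.06. The order of NID1 was opposite to that of collagen IV and HSPG2: 4 of 5 Control animals were lower at year 2, at a log2 difference of -0.56 ± 0.28 (unadjusted p = 0.0675, adjusted p = 0.361), while CR differed by 0.12 ± 0.27 (adjusted p = 0.999), with edgeR. At year 0 CR minus Control was -0.63 ± 0.28 (unadjusted p = 0.0481, adjusted p = 0.269, edgeR), with Control 001 below the whole CR range and the other 4 Control animals above it. Without animal 001 alone that difference was -0.83 ± 0.17 (adjusted p = 0.0403, edgeR), in a fit that called 340 of 13347 genes (2.55%), and without animals 001 and 009 it was -0.68 ± 0.16 (adjusted p = 0.0636). The interaction was 0.68 ± 0.39 (adjusted p = 0.751, edgeR).

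LAMA4, LAMB1 and LAMC1 encode the alpha 4, beta 1 and gamma 1 chains of a laminin of vessel walls. LAMC1 ran from 18.9 to 43.6 CPM over the 20 libraries. CR livers had 32.9, 32.5, 37.6, 30.5 and 35.5 CPM at year 2 and 33.2, 43.6, 37.4, 31.9 and 38.7 CPM at year 0. Control livers had 18.9, 38.4, 33.7, 31.8 and 32.3 CPM at year 2 and 32.9, 26.3, 27.1, 28.6 and 29.0 CPM at year 0. Control 001 at year 2 was the lowest library. At year 0 CR minus Control was 0.36 ± 0.10 (unadjusted p = 0.00429, adjusted p = 0.110, edgeR), with 4 of 5 CR livers above every Control liver. The log2 difference over 2 years was -0.12 ± 0.18 in CR and 0.08 ± 0.18 in Control, and the interaction was -0.20 ± 0.26 (adjusted p = 0.856, edgeR). Without animals 001 and 009 the Control difference was 0.36 ± 0.13 and the interaction -0.49 ± 0.17 (adjusted p = 0.422, edgeR).

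LAMB1 had 26.4, 31.3, 33.7, 33.6 and 41.7 CPM in CR livers at year 2 and 16.3, 45.8, 35.3, 21.2 and 26.6 CPM at year 0. Control livers had 17.04, 22.3, 28.7, 167 and 69.7 CPM at year 2 and 17.5, 41.6, 40.3, 37.8 and 41.5 CPM at year 0. Control 009 at year 2 was above every other library by a wide margin, and Control 001 was low at both times. LAMA4, a gene with 18 to 438 reads per library, had 2.80, 2.10, 3.29, 1.60 and 1.31 CPM in CR livers at year 2 and 1.11, 2.47, 1.53, 0.715 and 1.26 CPM at year 0. Control livers had 1.53, 1.65, 1.41, 17.1 and 6.68 CPM of LAMA4 at year 2 and 1.54, 3.43, 3.22, 2.08 and 2.09 CPM at year 0. Control 009 and then Control 010 at year 2 were the highest libraries for both genes. The Control difference over 2 years was 0.27 ± 0.37 for LAMB1 and 0.46 ± 0.58 for LAMA4, and without animals 001 and 009 it was -0.20 ± 0.33 and -0.20 ± 0.57, so the sign changed for both. In CR the differences were 0.28 ± 0.36 and 0.68 ± 0.54. At year 0 CR minus Control was -0.79 ± 0.33 for LAMA4 (unadjusted p = 0.0344, adjusted p = 0.236, edgeR) and -0.30 ± 0.30 for LAMB1 (adjusted p = 0.629, edgeR). The LAMB1 difference without animals 001 and 009 was -0.50 ± 0.29 (adjusted p = 0.327, edgeR).

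**Figure D4:**
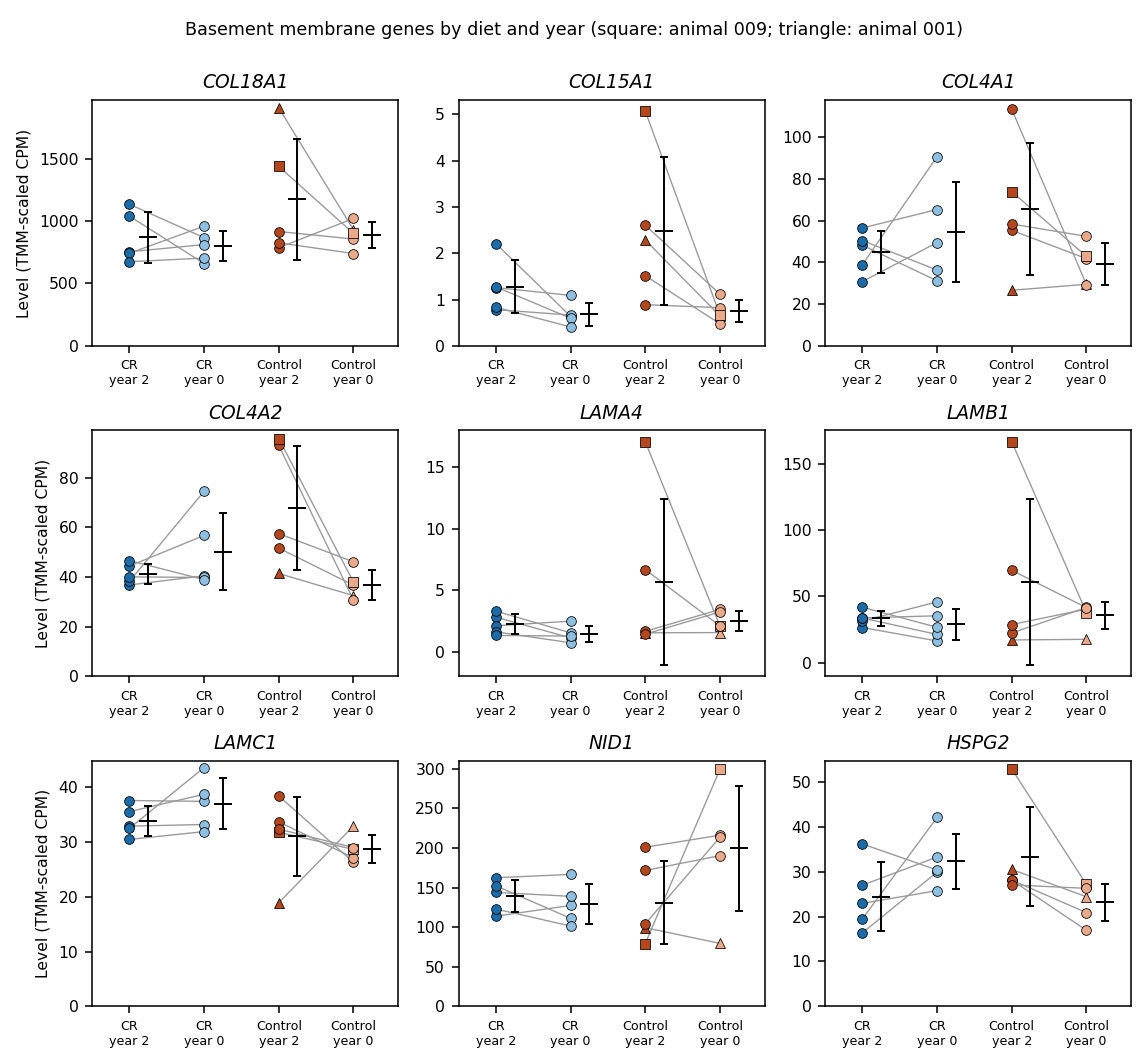
Levels of the 9 genes in TMM-scaled CPM in CR at year 2, CR at year 0, Control at year 2 and Control at year 0. Points are libraries, grey lines join the biopsies of an animal, bars give mean and SD (n = 5); squares are animal 009 and triangles animal 001. Control 009 at year 2 is the highest library for COL15A1, COL4A2, LAMA4, LAMB1 and HSPG2 and the lowest for NID1.

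LAMA4 is listed with 3 transcripts, of which 1 had no reads. Its reads fell on a single transcript in each library. In CR livers at year 2 all reads were on transcript 01, with 62.0, 59.0, 94.0, 44.0 and 33.0 estimated reads. In CR livers at year 0, animals 007, 008 and 011 had all of their 67, 49 and 18 reads on transcript 02, and animals 004 and 012 had theirs on transcript 01. In Control livers at year 2 all reads were on transcript 01 but for 0.01 of a read in animal 010. In Control livers at year 0, animals 001 and 006 had all of their 43 and 81 reads on transcript 02, and the other 3 had theirs on transcript 01. Transcript 02 was thus the single LAMA4 transcript in 5 of 10 biopsies at year 0 and in 0 of 10 at year 2. Usage was tested across 1185 genes with diffSpliceDGE of edgeR, which gave LAMA4 an unadjusted p of 0.0106 in CR and 0.0283 in Control over 2 years, with an adjusted p of 1.00 in both. The share of genes called was 0% in the change of CR, 0.253% in the change of Control, 0.169% in the interaction, 0% between diets at year 2 and 0.169% at year 0, and LAMA4 was not among them. Of 353 other genes with more than 1 transcript and 18 to 438 reads in every library, 62 (17.6%) had 99% or more of their reads on 1 transcript in some library and on another in a different library. Only 3 of the 353 had 99% or more on 1 transcript in all 20 libraries. The pattern of LAMA4, with both features, was met by 2 of them (0.567%), CHST12 and MANBAL, which are named after their values were seen. Over single libraries, 36.2% of the 7060 values of the 353 genes had 99% or more of the reads on 1 transcript.

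**Figure D5:**
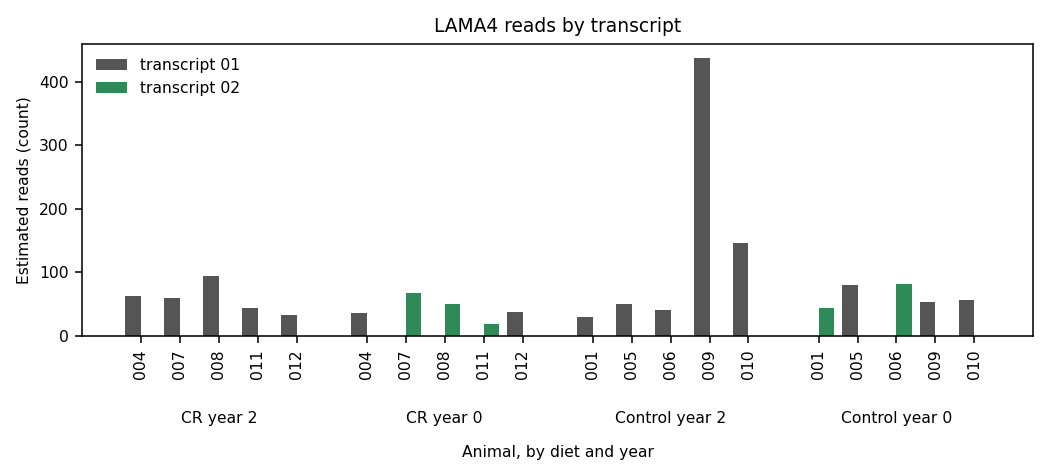
Estimated reads of LAMA4 on transcript 01 (grey) and transcript 02 (green) in each library, by diet, year and animal. Reads lie on 1 transcript per library; transcript 02 appears in 3 CR and 2 Control biopsies of year 0 and has 0 or 0.01 of a read at year 2.

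Ranked by median TPM over the 20 libraries, COL18A1 (252) stood first and NID1 (43.2) second. COL4A1 (12.99), COL4A2 (11.8), LAMB1 (10.7) and LAMC1 (7.47) followed, with ranges of 4.34 to 31.5, 7.06 to 42.8, 3.27 to 83.7 and 2.59 to 11.4 TPM that overlapped one another. HSPG2 (3.17) had a range of 1.80 to 10.2 TPM. LAMA4 (0.45, range 0.18 to 6.48) and COL15A1 (0.305, range 0.14 to 2.72) were the lowest and overlapped. COL18A1 did not overlap with any of them, since its lowest library had 192 TPM and the highest library of any other member, one of LAMB1, had 83.7 TPM.

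Within groups, COL18A1 varied apart from most of the other members. After removal of group means its log2 CPM correlated with COL4A1 at r = -0.70 over 20 libraries and -0.68 over 18, with LAMC1 at -0.70 and -0.39, with HSPG2 at -0.09 and -0.63, and with its relative COL15A1 at 0.31 and 0.00. LAMA4 and LAMB1 correlated at 0.85 and 0.69. These values are descriptions over libraries that share animals, depth and scaling. The genes most like COL18A1 by the same measure over 20 libraries were NDOR1 (r = 0.911), PPP6R2 (0.911), C1orf86 (0.891), SLC2A4RG (0.887) and AMDHD2 (0.881). Over 18 libraries they were XPC (0.877), ESPN (0.852), FAM173A (0.815), AGPAT1 (0.808) and GAA (0.805). None of the first 5 was among the second 5. For the mean z score of the other 8 members, the most similar genes were TM6SF1 (0.916), NPY1R (0.911), COLEC12 (0.907), DLL4 (0.894) and KLHL6 (0.877) over 20 libraries. Over 18 libraries they were PPP1R9A (0.917), UXS1 (0.869), COLEC12 (0.857), GJA1 (0.851) and ABO (0.843), so that COLEC12 was the gene common to both.

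The wider set of basement membrane genes was also without a call. Of 25 other components tested, 0 passed in any comparison with edgeR. Their median log2 difference was -0.11 in the change of CR, 0.01 in the change of Control, -0.13 in the interaction, -0.34 between diets at year 2 and -0.07 at year 0. LAMB2, a beta chain that can take the place of LAMB1, averaged 93.5 CPM in Control livers of year 2 and 39.0 CPM in Control at year 0, a log2 difference of 1.02 ± 0.34 (adjusted p = 0.309, edgeR). Its levels in Control 009 and 001 at year 2 were 187 and 128 CPM, against 26.4 to 66.1 in the other 18 libraries. LAMA1, a laminin alpha chain, averaged 1.55 CPM in CR at year 2 and 3.68 CPM in CR at year 0, a log2 difference of -1.21 ± 0.39 (adjusted p = 0.999, edgeR). COL4A4, a collagen IV chain of the kidney filter, averaged 0.838 CPM in Control livers of year 2 and 1.83 CPM at year 0, a log2 difference of -1.26 ± 0.42 (adjusted p = 0.308, edgeR).

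Of 21 receptors of basement membranes, 0 were called in any comparison with edgeR. SDC3, a cell surface heparan sulfate proteoglycan, had the smallest adjusted p of the list, with 48.3 CPM in CR and 30.4 CPM in Control at year 0, a log2 difference of 0.67 ± 0.13 (adjusted p = 0.0628). The integrin chain ITGB1 averaged 266 CPM in CR and 207 CPM in Control at year 0 (adjusted p = 0.163, edgeR), and its levels in Control 009 and 001 at year 2 were 90.6 and 66.6 CPM, against 162 to 294 elsewhere. ITGA7, a laminin receptor chain of muscle, averaged 7.65 CPM in CR and 16.3 CPM in Control at year 2 (adjusted p = 0.659, edgeR), with 34.1 and 25.9 CPM in Control 009 and 001 against 3.23 to 9.43 elsewhere. Of the 23 genes tested for collagen modification and folding (22 in the comparisons within a year), 0 were called. LEPREL2, a prolyl hydroxylase, averaged 7.67 CPM in Control livers of year 2 and 3.09 CPM at year 0, a log2 difference of 1.05 ± 0.34 (adjusted p = 0.305, edgeR).

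Of 9 proteases tested that act on basement membranes or release endostatin, 0 were called with edgeR. MMP9, a gelatinase that cuts collagen IV, averaged 2.27 CPM in Control livers of year 2 and 0.462 CPM in Control at year 0, a log2 difference of 2.27 ± 0.44 (unadjusted p = 0.000209, adjusted p = 0.289). At year 0 it averaged 1.11 CPM in CR and 0.462 CPM in Control (adjusted p = 0.127). CTSB, a lysosomal protease, averaged 405 CPM in CR and 279.6 CPM in Control at year 0 (adjusted p = 0.150, edgeR). Of 16 genes of TGF beta signalling, which drives matrix synthesis, 0 were called. TGFB1 averaged 12.9 CPM in CR and 8.45 CPM in Control at year 0 (adjusted p = 0.0819, edgeR), and its receptor gene TGFBR1 averaged 54.1 CPM in CR and 43.9 CPM in Control (adjusted p = 0.0971, edgeR).

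Markers of the cells that make basement membrane were set beside these values. All 14 endothelial markers tested had negative log2 differences in the change of CR and in the interaction (medians -0.26 and -0.62), 12 of 14 were positive in the change of Control (median 0.31) and 13 of 14 were positive for CR minus Control at year 0 (median 0.37), with 0 called by edgeR. These are the signs of COL4A2 and HSPG2 in those 4 comparisons, and they were not limited to endothelial markers. For COL4A2 and HSPG2 the sign of the interaction follows from their changes in CR and in Control, so it is not a separate match. For CR minus Control at year 2, 6 of 14 markers were positive and 8 negative (median -0.16), where COL4A2 and HSPG2 were at -0.73 and -0.46. Their summed level ran from 401 to 855 CPM in CR at year 2, 707 to 944 in CR at year 0, 681 to 1989 in Control livers of year 2 and 439.7 to 817 in Control at year 0. The highest sum, 1989 CPM, was that of Control 009 at year 2. Most of it was STAB1 and STAB2, at 862 and 426 CPM. In the 18 libraries other than Control 009 and 001 at year 2 they had 92.4 to 236 and 62.5 to 136 CPM. VWF, TIE1, CLEC4G and ERG in Control 009 were also above those 18, while CDH5, TEK, LYVE1, FCN3, OIT3, EMCN and CLEC14A lay within their range. The lowest in CR at year 2 were 401 CPM in animal 004 and 477 CPM in animal 007, the animals with the lowest HSPG2 there. Animals 004 and 007 also had the lowest sums of macrophage markers (422 and 538 CPM) and lymphocyte markers (13.8 and 18.6 CPM) in CR at year 2. The 16 stellate and fibroblast markers summed to 724 to 864 CPM in CR at year 2, 658 to 847 in CR at year 0, 574 to 1675 in Control livers of year 2 and 737 to 1053 in Control at year 0, and Control 009 at year 2 was the highest. In the change of CR 12 of these 16 were positive, and at year 0 10 were negative, unlike COL4A2 and HSPG2. In the change of Control 11 were positive, in the interaction 9 were negative, and between diets at year 2 12 were negative (median -0.37). Those are the signs of COL4A2 and HSPG2. The 12 macrophage markers summed to 422 to 1235 CPM in CR at year 2, 1138 to 1372 in CR at year 0, 674 to 1815 in Control livers of year 2 and 609.8 to 1101 in Control at year 0. The 12 hepatocyte markers summed to 67591 CPM in Control 009 and 340817 CPM in Control 001 at year 2, against 176444 to 280155 in the other 18 libraries. The markers were split in Control 001 at year 2. HP (98730 CPM, at most 35790 in those 18), SERPINA1, APOA1, TTR, TF, FGB and ASGR1 lay above the 18 libraries. APOB, CYP2E1, PCK1 and CPS1 (1601 CPM, at least 1913 in those 18) lay below them, and ALB lay within their range. The part of these cell types in the results of the members was not tested.

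The authors' deposited table of 3071 genes lists 3 of the 9 members and does not name its comparison. Across the 2969 genes shared with the interaction described above, its log2 fold changes correlated with it at r = 0.999 and with the other 4 comparisons at -0.92 to 0.85. In the authors' deposited table COL4A2 has a log2 fold change of -1.18 (adjusted p = 0.00391), HSPG2 has -1.06 (adjusted p = 0.00469) and NID1 has 0.56 (adjusted p = 0.243). With DESeq2 on all genes here, the interaction of COL4A2 had an adjusted p of 0.205 with the animal block and 0.0833 without it, and that of HSPG2 had 0.229 and 0.208. How the 3071 genes of the authors' deposited table were selected is not given in the sources used here.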

How the data were processed

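Total RNA of 20 liver biopsies was made into TruSeq libraries and sequenced paired-end, per the labels' protocols. The authors deposited expected counts (estimated counts, which need not be whole), TPM and FPKM per gene and per transcript, as read from the values and per the file headers. The submitters' processing notes list STAR, RSEM and DESeq2, with no version or role, and the genome build rheMac8 (Mmul_8.0.1). No source used here gives the annotation or whether counting used strand. A further deposited table gives a signal column (mean of normalized counts), log2 fold changes and p-values, per the file headers. TPM are shares of a library, so a change of a few abundant genes moves all others. FPKM served to work out transcript lengths.

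Counts were rounded, filtered with filterByExpr (minimum count 10), scaled by TMM and tested with edgeR 4.0.16 in R 4.3.3 (robust quasi-likelihood F test, two-sided, Benjamini-Hochberg over all genes tested, threshold 0.05). The changes over 2 years and the interaction came from 1 fit of 20 libraries with a term per animal, and diets were compared within a year in fits of 10 libraries. SE is the size of the log2 change divided by the square root of F. The pairing comes from the animal number in the titles; deviations of an animal's biopsies from their group means correlated at -0.25 (animal 005) to 0.16 (animal 001) over 13730 genes. Usage of transcripts was tested with diffSpliceDGE on transcripts with at least 10 counts in 5 libraries and at least 5% of their gene. Alternatives used relative log expression scaling, no filter, limma 3.58.1 on log2(TPM + 1) or log2(TPM + 0.1), DESeq2 1.42.0, no animal term, and fits without single animals or without 001 and 009. Scripts were tested on simulated data.

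The members, gene lists and tests were chosen with earlier results of these data known. Of genes outside the members, the text names up to 3 per list with the smallest p, and the 5 genes with the highest correlation to COL18A1 or to the mean z score of the other members in log2 CPM without group means, over 20 and 18 libraries. DESeq2 without animals 001 and 009, and DESeq2 with no animal term, were added after the data were seen. All 9 members were found among the gene symbols of a reference table. Interpretation of transcript numbers is limited, since their exon structure was not used here.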

Additional observations from a re-analysis of the deposited data

Results flagged for a closer look

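Each group of 5 libraries was searched for a library far from the others, in the CPM of the 9 genes, the TPM of both COL18A1 transcripts and the share of transcript 02. Of 32 groups tested for the 8 genes other than COL18A1, 2 held such a library, where chance flags about 1 in 20. COL18A1 was picked on the level of its transcript 02, so that value is a description and is not counted. It was 546 TPM in Control 009 at year 2, and the nearest library of that group had 83.7 TPM. HSPG2 had 52.8 CPM in Control 009 at year 2, with the other 4 at 27.04 to 30.5 CPM. LAMB1 had 17.5 CPM in Control 001 at year 0, with the other 4 at 37.8 to 41.6 CPM. The same animal had 17.04 CPM of LAMB1 at year 2, which was the lowest of that group as well.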

How the results depend on the processing

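With 837 refits of the 9 genes' log2 differences in 5 comparisons (45 results), 781 kept direction and side of the threshold, 8 passed it newly and 48 changed sign. Of the 45 results, 31 never changed sign. None of the 45 passed the threshold in the main fit, so keeping its side meant staying uncalled. The refits reuse the same libraries and include COL18A1, which was picked from them, so the tally is a description. Of the 8 members other than COL18A1, 0 were called in every comparison with edgeR, TMM and all animals, also with no replicate block in the paired fit. DESeq2 called 1 in the change of Control, among 210 of 13463 genes (1.56%), and 1 at year 0, among 780 of 12949 (6.02%). With no replicate block it called 2 in the change of Control (COL15A1, COL4A2), among 787 of 13684 genes (5.75%). With the block but without 001 and 009 it called 0 there, among 83 of 13583 genes (0.611%). At year 0 leaving out single animals gave 0 to 1 (NID1, without animal 001, among 340 of 13347 genes, 2.55%). There DESeq2 without 001 and 009 gave 3 (HSPG2, LAMC1 and NID1), among 1335 of 12934 genes (10.3%).

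Signs turned without animals 001 and 009 (edgeR, then DESeq2) in the change of Control for COL18A1 (-0.0200, -0.0216), LAMA4 (-0.20, -0.21) and LAMB1 (-0.20, -0.20), in the interaction for COL18A1 (0.12, 0.12), and between diets at year 2 for COL18A1 (0.0437, 0.0367), LAMC1 (-0.0446, -0.0507) and NID1 (-0.19, -0.20). With limma on log2(TPM + 1) and log2(TPM + 0.1) they turned for COL18A1 in the change of CR (-0.0092, -0.0092) and at year 0 (0.0075, 0.0075), for COL15A1 at year 0 (0.0087, 0.0280), and in the interaction for LAMA4 (-0.33, -0.20) and LAMB1 (-0.30, -0.27). With no replicate block the interactions were -0.55 (edgeR) and -0.56 (DESeq2) for LAMA4 and -0.57 and -0.58 for LAMB1, and with relative log expression scaling LAMB1 had -0.00048. Leaving out single animals, ranges that crossed 0 were -0.0330 to 0.22 (COL18A1) and -0.41 to 0.0592 (COL4A1) in CR; -0.15 to 0.94 (LAMA4), -0.15 to 0.59 (LAMB1) and -0.0225 to 0.30 (LAMC1) in Control; -0.26 to 0.82 (LAMA4) and -0.31 to 0.43 (LAMB1) in the interaction; -0.0157 to 0.20 (LAMC1) and -0.0642 to 0.29 (NID1) at year 2; and -0.37 to 0.0689 (COL15A1) at year 0. The cause was not tested beyond the libraries left out. With 12 to 130 reads for COL15A1 and 18 to 438 for LAMA4 per library, counting error is large for these genes.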
